A study of Mus musculus with 6 samples.

Results

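Chemokines, colony-stimulating factor 1 and interleukin-6 are the signals with which Schwann cells (SCs), the glia that ensheath peripheral axons, call in and sustain immune cells after a nerve is cut. The 10 genes described here are Ccl2, Ccl7, Ccl11, Cxcl1, Cxcl5, Cxcl12, Cxcl16, Cx3cl1, Csf1 and Il6. They were chosen by name, as the rows of the deposited count table whose Ensembl identifier maps to one of these symbols, and they are 10 of the 55401 genes listed. Primary SCs from the dorsal root ganglia of adult mice were cultured and their RNA sequenced in bulk, in 3 cultures labelled WT and 3 labelled PB1 -/-. The question was whether SCs without the guidance receptor Plexin-B1 make different amounts of these signals.

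The mutant mice carry Plxnb1 tm1Matl, an allele with a transmembrane-lacZ-neo gene trap cassette inserted into Plxnb1. The allele is constitutive, so the ganglia had also developed with it. The study used Plxnb1+/- littermates as well as WT mice for its control animals, but the sample labels give WT for these 3 cultures. All 6 cultures were grown on poly-L-lysine and laminin with 2 µM forskolin, 10 nM neuregulin and 10% serum, were freed of fibroblasts with an antibody to Thy1, and were used at passages 3 to 5 with a stated purity above 80%. No culture was injured or given an inflammatory stimulus according to the labels, so the levels are those of cells in growth medium. Neither the sex of the mice nor the number of animals behind a culture is given, so the p-values measure the spread between cultures only.

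Plxnb1 itself (chr9:109095389-109119917, GRCm38, + strand) fell, from 61.8, 45.4 and 96.4 CPM (counts scaled to library size by the TMM method) in WT replicates 1 to 3 to 13.1, 16.6 and 18.6 in the Plxnb1-/- cultures. The log2 fold change was -2.08 ± 0.25 (SE; edgeR quasi-likelihood test, adjusted p = 0.0449), and -2.19 without Plxnb1-/- replicate 3 (edgeR adjusted p = 0.125). Total counts per library lay between 59252048 and 77280964, and 3 counts, taken as the lowest detectable number, correspond to 0.0383 to 0.0513 CPM. Plxnb1-/- replicate 3 stands apart from the other libraries. Its Xist level was 11.6 CPM against 218 to 260 in the others, and Ddx3y, a gene of the Y chromosome, was at 77.6 CPM against 0 in the 3 WT libraries and 2.68 and 3.57 in Plxnb1-/- replicates 1 and 2. Results are therefore also given without that culture. Leaving it out does not remove the difference in Ddx3y, since Plxnb1-/- replicates 1 and 2 were also above the WT libraries. The part of sex-linked differences in the other values was not tested.

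The label of the cells was checked against markers. All 14 SC markers were detected, and their summed level was 2971 to 3548 CPM in the WT and 3583 to 4099 CPM in the Plxnb1-/- cultures, which do not overlap. Of these 14 markers 13 were higher and 1 lower in Plxnb1-/- cultures, with a median log2 fold change of 0.19. Markers of other cells were present too. Fibroblast markers summed to 8206 to 9966 CPM in the WT and 7763 to 8200 CPM in the Plxnb1-/- cultures. These ranges do not overlap either, but 8206 and 8200 CPM nearly meet. Col3a1, at a mean of 5299 CPM in WT and 4509 CPM in Plxnb1-/- cultures, and Postn, at 2677 and 2730 CPM, made up most of it. Dpt, Pi16 and Clec3b averaged below 1 CPM. Of the 10 fibroblast markers 2 were higher and 8 lower in Plxnb1-/- cultures, with a median log2 fold change of -0.17. Thy1, the antigen used to remove fibroblasts, was still at 429 to 652 CPM in the WT and 384 to 410 CPM in the Plxnb1-/- cultures. Mural cell markers summed to 1886 to 2511 CPM in the WT and 1711 to 1835 CPM in the Plxnb1-/- cultures, again without overlap. Most of this sum came from Acta2, Pdgfrb and Cspg4. Of the 9 mural markers 5 were higher and 4 lower in Plxnb1-/- cultures, with a median log2 fold change of 0.07, opposite in direction to the sum. WT replicate 2 had the lowest SC sum and the highest fibroblast and mural sums. Macrophage and leukocyte markers summed to 134 to 162 CPM in the WT and 174 to 194 CPM in the Plxnb1-/- cultures, which do not overlap. Neuron markers summed to 126 to 143 and 135 to 156 CPM, and endothelial markers to 63.0 to 86.1 and 65.3 to 71.4 CPM, and both overlap. Most of the neuron sum came from Uchl1, at a mean of 106 CPM in WT, and most of the endothelial sum from Cdh5, at 59.9 CPM. Of the neuron markers 12 of 12 were higher, with a median log2 fold change of 0.36 (0.04 without Plxnb1-/- replicate 3), and of the endothelial markers 7 of 8 were lower, with a median of -0.44. edgeR called 0 of the markers of SCs, fibroblasts, mural cells, neurons or endothelium. At an unadjusted p below 0.05 it listed 9 of 14, 3 of 10, 3 of 9, 1 of 12 and 1 of 8, against 13.7% of all genes tested. DESeq2 called 1, a mural marker, against 1.5% of all genes tested. Several of the 10 signals are also made by fibroblasts and macrophages, and in bulk RNA more cells of a type and more RNA per cell cannot be told apart.

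Chemokines are small secreted proteins that draw leukocytes along a gradient by binding receptors coupled to G proteins. Their families are named for the spacing of the first pair of cysteines in the mature protein: adjacent in CC chemokines, 1 residue apart in CXC chemokines, and 3 residues apart in the CX3C chemokine. CC chemokines such as Ccl2 mainly attract monocytes, CXC chemokines with a Glu-Leu-Arg motif before the cysteines attract neutrophils, and Cxcl16 and Cx3cl1 are made as membrane-bound proteins that can be shed. After nerve injury SCs are a known source of Ccl2, which brings monocytes into the nerve, while Csf1 supports the survival of macrophages and Il6 acts through Il6st and the transcription factor Stat3.

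The cysteine spacing that sorts the 8 chemokines is visible in their coding sequence. The stretches below are read from the GENCODE annotation of GRCm38, 5′ to 3′ on the coding strand, in frame, and all lie in the second exon. Capitals mark the codons of the first pair of cysteines in the mature part of the protein.
Ccl2, chr11:82036491-82036523, + strand: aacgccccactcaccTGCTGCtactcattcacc
Ccl7, chr11:82046523-82046555, + strand: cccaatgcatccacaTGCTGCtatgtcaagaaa
Ccl11, chr11:82061681-82061713, + strand: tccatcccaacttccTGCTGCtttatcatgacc
Cxcl1, chr5:90891481-90891516, + strand: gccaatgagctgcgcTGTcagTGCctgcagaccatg
Cxcl5, chr5:90759712-90759747, + strand: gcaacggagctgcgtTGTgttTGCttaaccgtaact
Cxcl12, chr6:117171493-117171528, + strand: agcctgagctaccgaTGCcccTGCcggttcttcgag
Cxcl16, chr11:70459115-70459150, - strand: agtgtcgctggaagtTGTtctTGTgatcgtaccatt
Cx3cl1, chr8:94778036-94778077, + strand: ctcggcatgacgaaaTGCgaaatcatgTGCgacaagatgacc
The codons are adjacent in Ccl2, Ccl7 and Ccl11, are 1 codon apart in the 4 Cxcl genes, and are 3 codons apart in Cx3cl1. Cxcl1 and Cxcl5 carry the codons for Glu-Leu-Arg directly before the first cysteine, and Cxcl12 and Cxcl16 do not.

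The CC genes and the Cxcl1 and Cxcl5 pair have close relatives, which matters for how reads are assigned. The coding sequences of Ccl2, Ccl7 and Ccl11 were identical at 67.7 to 68.4% of aligned bases, and those of Cxcl1 and Cxcl5 at 68.4%. Of all 50-base stretches in the transcripts, 0 were shared with another gene for 8 of the 10 members. For Cxcl5, 13 of 1876 stretches (0.693%) were shared with unrelated genes. For Cxcl16, 503 of 2973 stretches (16.9%) were shared with Zmynd15, which lies on the opposite strand and overlaps 552 bases of its exons. The strand setting of the counting is not given in the sources used here, so reads from Cxcl16 and Zmynd15 may not be told apart.

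All 10 genes were detected in all 6 libraries and passed the filter on low counts. Between genes, levels were set per kilobase of merged exon, because CPM alone favors long transcripts. On that scale the order was Ccl11, Ccl7, Cx3cl1, Csf1, Ccl2, Cxcl12, Il6, Cxcl16, Cxcl5 and Cxcl1, with median levels over the 6 libraries from 42.3 down to 0.186 CPM per kilobase, a 227-fold range. Ccl11, the eosinophil attractant eotaxin, ranged from 27.98 to 61.4 CPM per kilobase and overlapped its neighbor Ccl7, at 27.0 to 45.6. Cx3cl1 (14.8 to 18.7), Csf1 (12.2 to 14.9) and Ccl2 (10.5 to 13.8) formed a second group, in which each gene overlapped the next. Cxcl12 (3.25 to 4.09) overlapped Il6 (2.32 to 3.65). The 3 lowest genes were separate from each other, with Cxcl16 at 1.12 to 1.52, Cxcl5 at 0.453 to 0.999 and Cxcl1 at 0.118 to 0.382 CPM per kilobase. The neutrophil attractants with the Glu-Leu-Arg motif were therefore the least abundant of the set. The order depends on the length used: per kilobase of the mean coding transcript, Cx3cl1 had the highest median, 44.6, ahead of Ccl11, at 42.3. The aligner used by the authors does not span introns, so reads across exon junctions can be lost. The share lost in each gene was not measured, and neither length corrects for it.

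**Figure D1:**
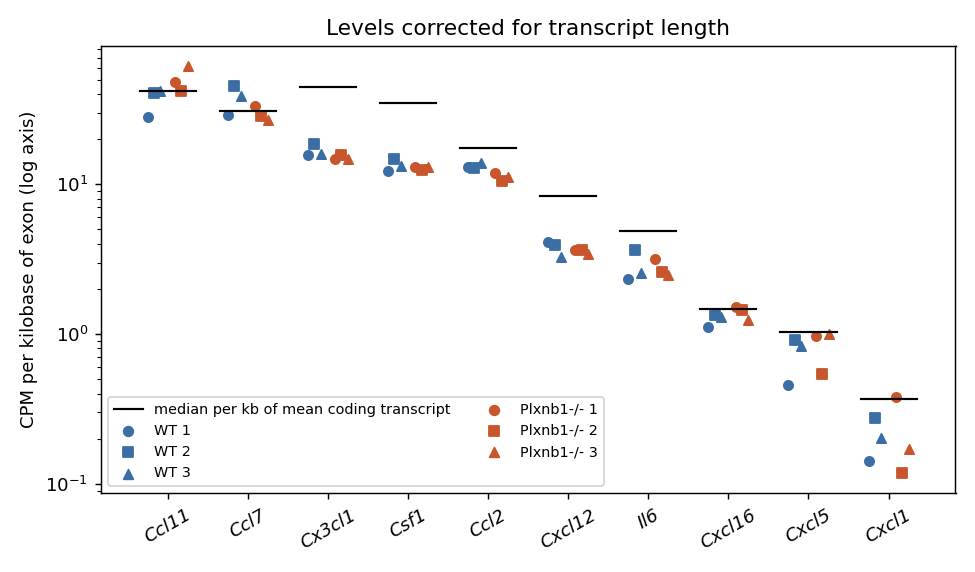
Level of each gene in CPM per kilobase of merged exon (log axis), ordered by the median over 6 libraries; points are single cultures, blue for WT and orange for Plxnb1-/-, with the replicate number as marker shape, and black bars are the medians per kilobase of the mean coding transcript. Ccl11 and Ccl7 lead at medians of 42.3 and 31.1, Cxcl1 is lowest at 0.186, and the black bars of Cx3cl1 and Csf1 lie well above their points.

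Between genotypes, 0 of the 10 genes passed the test. To count as called, a gene had to change by more than 0.25 on the log2 scale with an adjusted p under 0.05. In edgeR 8 of the 22318 genes tested did so, or 0.0358% (0.00448% higher and 0.0314% lower in Plxnb1-/- cultures). DESeq2, which called 1.5% of the same genes (0.69% higher and 0.811% lower), also called 0 of the 10, and gave no adjusted p for Cxcl1. In both tools only Ccl7 and Ccl11 of the 10 changed by more than 0.25, so the others could not be called at any adjusted p. At an unadjusted p below 0.05 edgeR listed 3 of the 10, Ccl2, Ccl7 and Ccl11, against 13.7% of all genes. The genotypes did not overlap for 1 of the 10, Ccl2, against 19.7% of all genes (9.3% higher and 10.4% lower). That count depends on the scaling: it was 2, both lower, with DESeq2 size factors, and 3, with 1 higher and 2 lower, on FPKM. The 19.7% is for TMM-scaled CPM, and no share of all genes was computed on the other scales. The median log2 fold change of the 10 was -0.05, or 0.00 without Plxnb1-/- replicate 3, and over all genes tested it was 0.01. In sign, 4 of the 10 were higher and 6 lower in Plxnb1-/- cultures, and 11491 of all 22318 genes tested were higher.

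**Figure D2:**
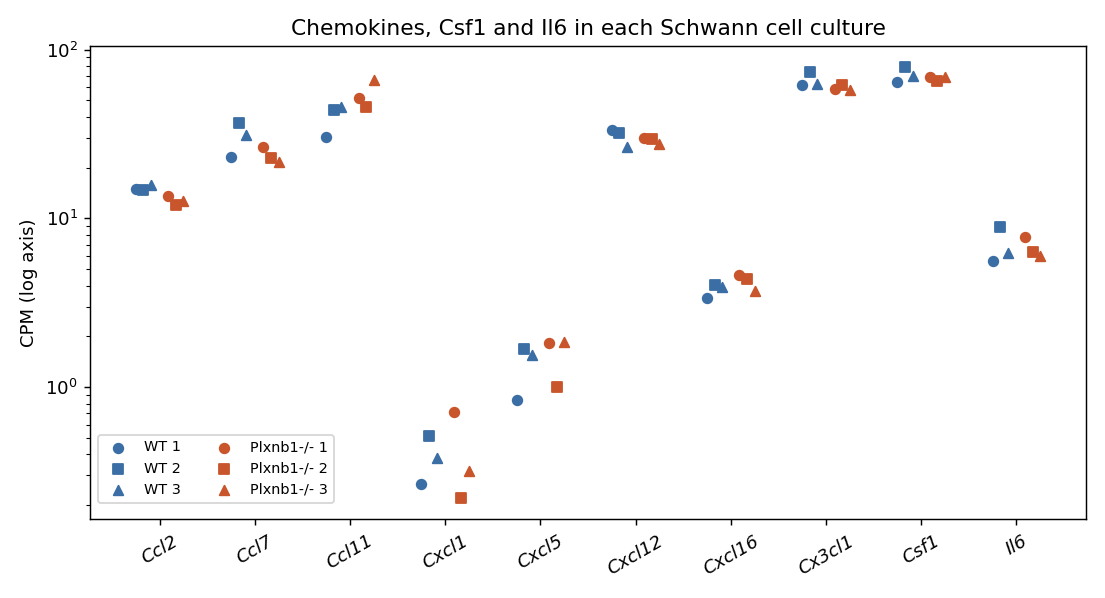
CPM of each gene in each culture (log axis), blue for the 3 WT and orange for the 3 Plxnb1-/- cultures, with the replicate number as marker shape. On this scale Ccl2 is the only gene whose genotypes do not overlap, at 14.7 to 15.7 CPM in WT and 11.9 to 13.6 in Plxnb1-/- cultures.

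Ccl2, Ccl7 and Ccl11 are the first 3 genes of a row of CC chemokine genes on chromosome 11. Ccl2 (chr11:82035571-82037453, + strand), the main attractant of monocytes, was at 14.9, 14.7 and 15.7 CPM in WT replicates 1 to 3 and at 13.6, 11.9 and 12.7 CPM in the Plxnb1-/- cultures. Every Plxnb1-/- culture was below every WT culture. This log2 fold change was -0.249 ± 0.068 (SE), with a 95% interval from -0.40 to -0.09, and its size was just under the cutoff of 0.25. It also did not pass the adjustment over all genes (edgeR adjusted p = 0.273, DESeq2 adjusted p = 0.0905), and was -0.24 without Plxnb1-/- replicate 3.

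Ccl7 (chr11:82045712-82047525, + strand) encodes a second monocyte attractant that shares a receptor with Ccl2. Its level was 23.2, 36.5 and 31.2 CPM in the WT and 26.6, 22.9 and 21.6 CPM in the Plxnb1-/- cultures. WT replicates 2 and 3 were above all Plxnb1-/- cultures, while WT replicate 1 lay among them. Plxnb1-/- over WT, the log2 fold change was -0.35 ± 0.15 (SE; interval -0.68 to -0.02; edgeR adjusted p = 0.348). It was -0.19 when WT replicate 2 was left out and -0.29 without Plxnb1-/- replicate 3.

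Ccl11 (chr11:82057823-82062955, + strand) differed in the other direction. It was at 30.3, 43.9 and 45.8 CPM in the WT and at 52.0, 45.7 and 66.5 CPM in the Plxnb1-/- cultures, where replicate 2 fell just inside the WT range. Its log2 fold change of 0.45 ± 0.17 (SE; interval 0.07 to 0.83) did not pass the test (edgeR adjusted p = 0.314, DESeq2 adjusted p = 0.331). WT replicate 1, the lowest library, and Plxnb1-/- replicate 3, the highest, each set part of the size, since leaving out either gave 0.29.

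Because Ccl2 and Ccl7 were lower and Ccl11 higher, their proportions were set side by side, per kilobase of exon. This comparison was chosen after the values were seen, so it is a description and no p is given. The ratio of Ccl11 to Ccl2 was 2.13, 3.14 and 3.06 in WT and 4.03, 4.02 and 5.53 in Plxnb1-/- cultures. The ratio of Ccl11 to Ccl7 was 0.966, 0.889 and 1.09 in WT and 1.45, 1.48 and 2.28 in Plxnb1-/- cultures. Neither ratio overlapped between genotypes, and both were highest in Plxnb1-/- replicate 3. Pairing a gene that was lower with one that was higher favors such a separation. No share over other gene pairs was computed, so the separation is not a result about these genes. The ratio of Ccl7 to Ccl2, the pair that shares a receptor, was 2.21, 3.53 and 2.81 in WT and 2.78, 2.72 and 2.43 in Plxnb1-/- cultures, which overlap.

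The other CC genes of the row gave few counts. Ccl8 was at 1.72 to 3.15 CPM in the WT and 2.29 to 2.75 CPM in the Plxnb1-/- cultures, with a log2 fold change of 0.02 ± 0.20 (SE). Ccl12, a relative of Ccl2 with 67.6% identical coding bases, was at 0.137 to 0.172 CPM in the WT and 0.0288 to 0.0828 CPM in the Plxnb1-/- cultures, close to the level of 3 counts. Its genotypes did not overlap, and its difference did not pass the test (edgeR adjusted p = 0.293). Ccl1 had 0 counts in all 6 libraries, which allows up to 0.0513 CPM.

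**Figure D3:**
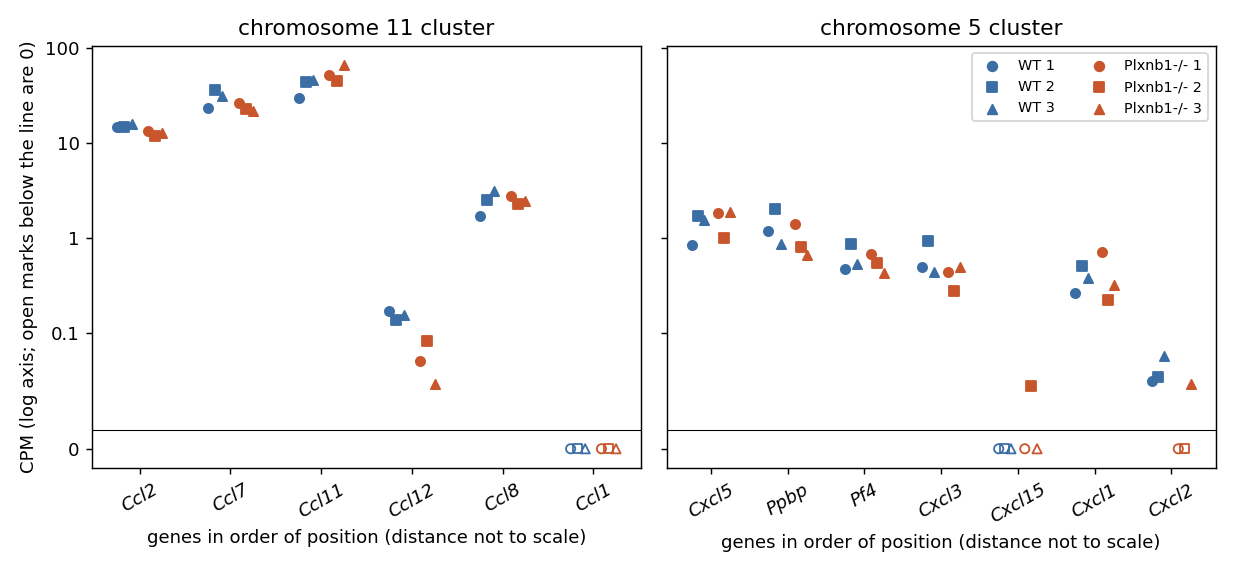
CPM (log axis) of the chemokine genes in order along chromosome 11 (left) and chromosome 5 (right), with blue for WT, orange for Plxnb1-/- and open marks under the line for libraries at 0; distances are not to scale. In CPM, which is not corrected for length, Ccl11 is at 30.3 or more and the genes after it at 3.15 or less, and on chromosome 5 all 7 genes are at 2.00 CPM or less.

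Cxcl1 and Cxcl5, the neutrophil attractants, lie in a row of CXC genes on chromosome 5 and had the lowest counts of the 10. Cxcl5 (chr5:90759360-90761624, + strand) was at 0.844, 1.69 and 1.55 CPM in the WT and 1.81, 1.01 and 1.86 CPM in the Plxnb1-/- cultures, or 54 to 142 counts. Cxcl1 (chr5:90891241-90893115, + strand) was at 0.266, 0.513 and 0.381 CPM in the WT and 0.716, 0.221 and 0.317 CPM in the Plxnb1-/- cultures, or 16 to 56 counts. In both genes the libraries of both genotypes were interleaved. The log2 fold changes were 0.20 ± 0.30 (SE; interval -0.48 to 0.87; edgeR adjusted p = 0.812) for Cxcl5 and 0.13 ± 0.44 (SE; interval -0.87 to 1.14; edgeR adjusted p = 0.925) for Cxcl1. Single libraries set the sign: without WT replicate 1 Cxcl5 was at -0.05 and Cxcl1 at -0.07, and without Plxnb1-/- replicate 1 Cxcl1 was at -0.52. Without Plxnb1-/- replicate 3 they were at 0.06 and 0.29.

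The neighbors of this pair also gave few counts. Ppbp averaged 1.35 ± 0.59 CPM over WT and 0.957 ± 0.395 CPM over Plxnb1-/- cultures (SD, n = 3 each), Pf4 at 0.620 ± 0.206 and 0.554 ± 0.122 CPM, and Cxcl3 at 0.620 ± 0.264 and 0.400 ± 0.111 CPM. Cxcl2 was at 0.0565 CPM or less and Cxcl15 at 0.0276 CPM or less in every library. Ppbp and Pf4 are known mainly from platelets, and none of the 3 genes passed the test (edgeR adjusted p = 0.464 to 0.860).

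Cxcl12, Cxcl16 and Cx3cl1 act through the receptors Cxcr4, Cxcr6 and Cx3cr1. Cxcl12 (chr6:117168535-117181367, + strand), which guides cells through Cxcr4, was at 33.5, 32.1 and 26.5 CPM in the WT and 29.9, 29.7 and 27.8 CPM in the Plxnb1-/- cultures. The Plxnb1-/- values lay within the WT range, with a log2 fold change of -0.07 ± 0.08 (SE; interval -0.26 to 0.12; edgeR adjusted p = 0.740). It was -0.04 without Plxnb1-/- replicate 3, -0.17 without WT replicate 3 and -0.004 without WT replicate 1.

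Cxcl16 (chr11:70453983-70459984, - strand), a membrane-bound ligand of Cxcr6, was at 3.38, 4.01 and 3.94 CPM in the WT and 4.601, 4.36 and 3.72 CPM in the Plxnb1-/- cultures. Plxnb1-/- replicates 1 and 2 were above all WT libraries, and replicate 3 lay within their range. For Cxcl16 the log2 fold change was 0.16 ± 0.12 (SE; interval -0.10 to 0.43; edgeR adjusted p = 0.568). It was 0.25 without Plxnb1-/- replicate 3, 0.091 without WT replicate 1 and 0.095 without Plxnb1-/- replicate 1.

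Cx3cl1 (chr8:94772009-94782427, + strand) encodes fractalkine, the ligand of the macrophage receptor Cx3cr1. It was at 61.8, 73.4 and 62.9 CPM in the WT and 58.4, 61.9 and 58.0 CPM in the Plxnb1-/- cultures. Only Plxnb1-/- replicate 2 reached the WT range, by less than 0.1 CPM. Its log2 fold change of -0.15 ± 0.07 (SE; interval -0.31 to 0.00) did not pass the test (edgeR adjusted p = 0.367), and was -0.07 without WT replicate 2 and -0.14 without Plxnb1-/- replicate 3.

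Csf1 and Il6 are cytokines rather than chemokines. Csf1 (chr3:107741048-107760469, - strand) was at 64.4, 78.5 and 69.9 CPM in the WT and 68.9, 65.4 and 68.9 CPM in the Plxnb1-/- cultures, all 3 within the WT range. Csf1 had a log2 fold change of -0.07 ± 0.07 (SE; edgeR adjusted p = 0.707), with an interval from -0.22 to 0.09. It was -0.08 without Plxnb1-/- replicate 3 and 0.02 without WT replicate 2, the highest library.

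Il6 (chr5:30013114-30019981, + strand) was at 5.63, 8.87 and 6.20 CPM in the WT and 7.74, 6.32 and 5.97 CPM in the Plxnb1-/- cultures, again all within the WT range. Il6 had a log2 fold change of -0.04 ± 0.17 (SE; interval -0.43 to 0.34; edgeR adjusted p = 0.938). Its sign turned when WT replicate 2 was left out, to 0.18, and without Plxnb1-/- replicate 3, to 0.03. WT replicate 2, the library with the highest fibroblast and mural sums, was the highest of the 6 for Ccl7, Cx3cl1, Csf1 and Il6. The part of other cells in these levels was not tested.

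**Figure D4:**
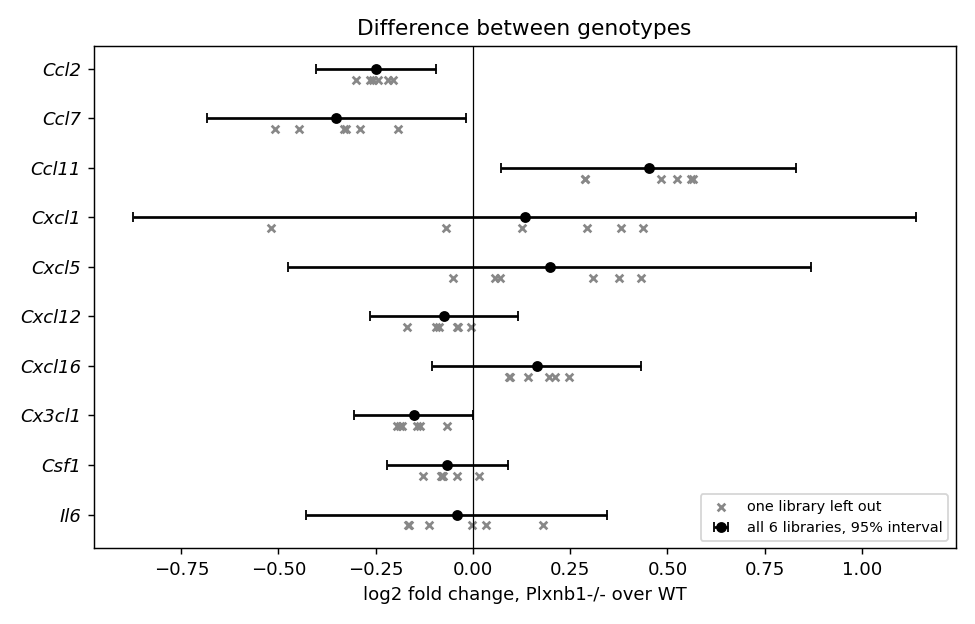
Log2 fold change of each gene, Plxnb1-/- over WT, from edgeR (black points) with 95% intervals, and the values with each library left out in turn (grey crosses). The intervals of Ccl2, Ccl7 and Ccl11 leave out 0, from -0.40 to -0.09, -0.68 to -0.02 and 0.07 to 0.83, though none of the 3 passed the adjustment over 22318 genes, and those of Cxcl5 and Cxcl1 are the widest.

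The genes whose profile over the 6 libraries was most like that of 2 members were listed as a description, by the root mean square difference of centred log2 CPM among 14992 genes. For Csf1 they were Adgra3, Usb1, Pogk, Cep95 and Sema5a, at differences of 0.018 to 0.029. For Ccl2 they were AC138768.3, Rbm3-ps, Gm17082, Zmat3 and 1600020E01Rik, at 0.031 to 0.045, of which only Zmat3 is annotated as coding. Ccl7, the neighbor of Ccl2 with the same receptor, differed from it by 0.21 on this scale and ranked 11016th.

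The receptors of these ligands sit mostly on other cells, and their transcripts were low or mixed in the cultures. Ccr2, the receptor of Ccl2 and Ccl7, was at 0 to 0.0625 CPM in the WT and 0.0828 to 0.128 CPM in the Plxnb1-/- cultures and did not pass the filter. Ccr3, the receptor of Ccl11, reached 0.113 CPM at most, and Cxcr2, the receptor of Cxcl1 and Cxcl5, 0.0313 CPM at most. These 3 receptors were thus at a few counts per library, too few to compare genotypes. The Cxcl12 receptor Cxcr4 was at 7.08 ± 1.00 CPM in the WT and 7.99 ± 0.59 CPM in the Plxnb1-/- cultures, and the Cxcl16 receptor Cxcr6 at 5.11 ± 2.05 and 4.05 ± 0.82 CPM (SD, n = 3 each), with edgeR adjusted p-values of 0.526 and 0.603. The log2 fold change of Cxcr6, -0.33, was the lowest among the receptors with a mean of at least 1 CPM, and without WT replicate 2 it was 0.05.

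Cx3cr1 and Csf1r, the receptors of Cx3cl1 and Csf1, define macrophages. Cx3cr1 was at 3.14, 2.70 and 2.88 CPM in the WT and 4.396, 4.37 and 3.48 CPM in the Plxnb1-/- cultures. All Plxnb1-/- libraries were above all WT libraries, and the log2 fold change of 0.49 ± 0.13 (SE) was called by DESeq2 (adjusted p = 0.0497) and not by edgeR (adjusted p = 0.273). It was 0.59 without Plxnb1-/- replicate 3. Csf1r was at 14.7, 13.5 and 13.9 CPM in the WT and 17.1, 16.8 and 15.6 CPM in the Plxnb1-/- cultures, with a log2 fold change of 0.23 ± 0.06 (SE; edgeR adjusted p = 0.273, DESeq2 adjusted p = 0.0979). The 14 macrophage and leukocyte markers, both receptors among them, all passed the filter. Of these, 14 of 14 had a higher level in Plxnb1-/- cultures, with a median log2 fold change of 0.27. Over all genes tested, 11491 of 22318 were higher. For 7 of the 14 every Plxnb1-/- library was above every WT library, against 9.3% of all genes. edgeR called 0, with 7 at an unadjusted p below 0.05, against 13.7% of all genes. DESeq2 called 3, all higher, against 0.69% of all genes. Lyz2, an abundant macrophage gene, was at 89.7 ± 10.1 CPM in the WT and 114 ± 4 CPM in the Plxnb1-/- cultures (SD, n = 3 each). Their part in the values of Cx3cr1 and Csf1r was not tested. Cx3cr1 lies 10.9 Mb from Plxnb1 on chromosome 9.

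For Il6, the binding receptor Il6ra was at 20.6 ± 1.3 CPM in the WT and 22.4 ± 2.4 CPM in the Plxnb1-/- cultures, and the signal transducer Il6st at 629 ± 30 and 695 ± 32 CPM (SD, n = 3 each). The Il6st libraries did not overlap between genotypes, and the log2 fold change was 0.15 ± 0.05 (SE; edgeR adjusted p = 0.302). Il6ra and Il6st were thus detected in all cultures, and neither passed the test.

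Among all 18 chemokine receptor genes, 10 passed the filter, 7 were higher and 3 lower in Plxnb1-/- cultures, and the median log2 fold change was 0.20. edgeR called 0 of them, with 1 at an unadjusted p below 0.05, against 13.7% of all genes. DESeq2 called 1, Cx3cr1, against 1.5% of all genes. The list of atypical receptors holds 5 genes, and most of their products bind chemokines without classical signaling and often remove them. All 5 had negative log2 fold changes, from -1.05 to -0.02, with a median of -0.20. Only 3 of the 5 had a mean of at least 1 CPM. Below that level were Ackr1, whose log2 fold change was -0.02, and Ackr2, at 0 to 0.239 CPM. edgeR called 0 of the 5, with 1 at an unadjusted p below 0.05, against 13.7% of all genes. DESeq2 called 1, against 1.5% of all genes.

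That gene is Ccrl2, which presents chemerin on the cell surface. It was at 1.45, 1.62 and 1.99 CPM in the WT and 0.882, 0.814 and 0.750 CPM in the Plxnb1-/- cultures, with no overlap. Its log2 fold change was -1.05 ± 0.17 (SE; edgeR adjusted p = 0.168, DESeq2 adjusted p = 0.0015), and -0.995 without Plxnb1-/- replicate 3. Ccrl2 lies 1.95 Mb from Plxnb1 on chromosome 9. On the same chromosome, Ackr4 lies 5.00 Mb and Ackr2 12.8 Mb from Plxnb1. The part of these distances in the values of Ccrl2, Ackr4 and Ackr2 was not tested. Ackr3, which takes up Cxcl12, was at 49.95 ± 4.94 CPM in the WT and 45.1 ± 2.1 CPM in the Plxnb1-/- cultures (SD, n = 3 each; edgeR adjusted p = 0.400), and Ackr4, which takes up CC chemokines such as Ccl25, at 5.98 ± 0.63 and 5.23 ± 0.63 CPM (edgeR adjusted p = 0.499).

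Of 30 other chemokine ligands, 8 had 0 counts in all libraries and 19 passed the filter, of which 11 were higher and 8 lower, with a median log2 fold change of 0.02. edgeR called 0, with 4 at an unadjusted p below 0.05, against 13.7% of all genes. DESeq2 called 1, against 1.5% of all genes. That gene is Cxcl14, at 48.5, 43.9 and 52.3 CPM in the WT and 55.7, 60.3 and 64.1 CPM in the Plxnb1-/- cultures. All Plxnb1-/- libraries were above all WT libraries, with a log2 fold change of 0.32 ± 0.07 (SE; edgeR adjusted p = 0.266, DESeq2 adjusted p = 0.0147), and of 0.27 without Plxnb1-/- replicate 3. The interferon-induced Cxcl10 was at 5.13 ± 2.12 CPM in the WT and 5.03 ± 1.19 CPM in the Plxnb1-/- cultures, and Ccl25 at 4.05 ± 0.39 and 3.42 ± 0.16 CPM (SD, n = 3 each), with edgeR adjusted p-values of 0.966 and 0.364. Ppbp, described above, had the lowest log2 fold change among the ligands with a mean of at least 1 CPM, -0.47.

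The list of CSF1 and IL-6 receptors and related ligands holds 17 genes, of which 14 passed the filter. Of these 8 were higher and 6 lower, with a median log2 fold change of 0.11. edgeR called 0, with 5 at an unadjusted p below 0.05, against 13.7% of all genes. DESeq2 called 1, Clcf1, against 1.5% of all genes. Clcf1, a ligand of the IL-6 family, was at 51.6, 41.5 and 49.7 CPM in the WT and 56.9, 59.1 and 61.2 CPM in the Plxnb1-/- cultures. Its libraries did not overlap, and the log2 fold change was 0.31 ± 0.08 (SE; edgeR adjusted p = 0.273, DESeq2 adjusted p = 0.0221), and 0.29 without Plxnb1-/- replicate 3.

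Lif, an injury cytokine of the same family, was at 266 ± 20 CPM in WT and 258 ± 26 CPM in the mutant cultures (SD, n = 3 each; edgeR adjusted p = 0.825). Il34, the second ligand of Csf1r, had the highest log2 fold change of the list, 0.35 ± 0.12 (SE), at 30.3 ± 5.8 and 38.7 ± 2.2 CPM (SD, n = 3 each; edgeR adjusted p = 0.296). Cntfr, the receptor subunit for ciliary neurotrophic factor, had the lowest, -0.09 ± 0.09 (SE; edgeR adjusted p = 0.705). Except for Clcf1 with DESeq2, none of these genes passed a test.

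**Figure D5:**
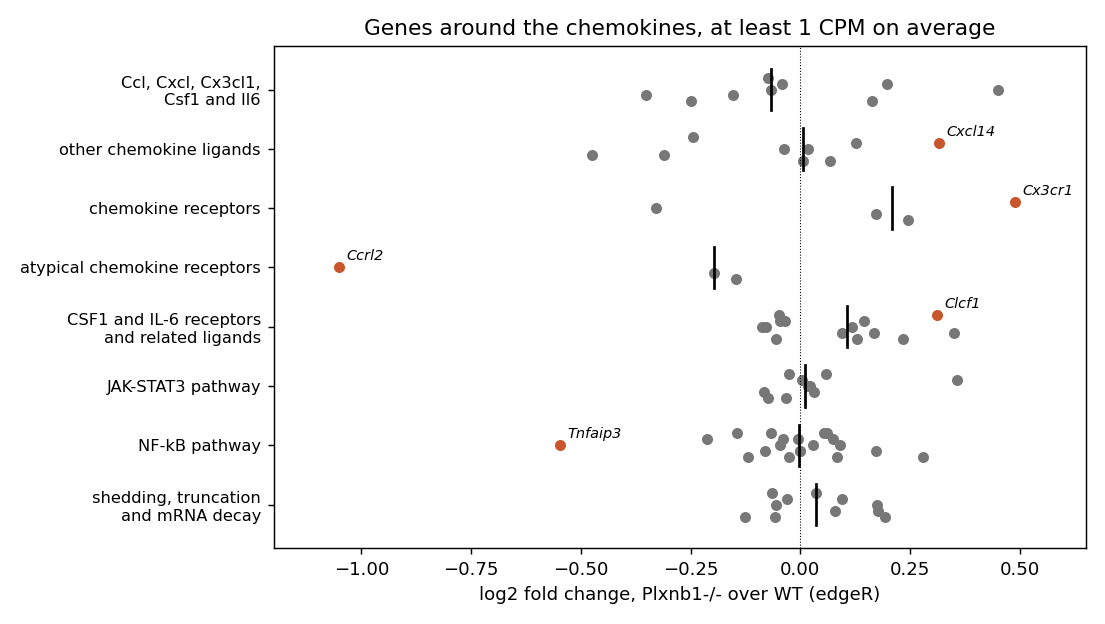
Log2 fold change, Plxnb1-/- over WT, of each tested gene with a mean of at least 1 CPM in the 10 signals and the lists around them, with the median of the genes drawn as a bar; orange and named genes were called by DESeq2, and edgeR called none of those drawn. The DESeq2 calls are Cxcl14 at 0.32, Cx3cr1 at 0.49, Ccrl2 at -1.05, Clcf1 at 0.31 and Tnfaip3 at -0.55.

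Signaling downstream of Il6 and upstream of chemokine genes was read from lists of its components. Of 10 genes of the JAK-STAT3 pathway, 6 were higher and 4 lower, with a median log2 fold change of 0.01. Neither tool called any, with 1 at an unadjusted p below 0.05 in edgeR, against 13.7% of all genes. Stat3 was at 397 ± 10 CPM in the WT and 414 ± 8 CPM in the Plxnb1-/- cultures, Ptpn11 at 381 ± 4 and 382 ± 9 CPM, and Jak1 at 309 ± 11 and 302 ± 3 CPM (SD, n = 3 each). Jak2 had the lowest log2 fold change, -0.08 ± 0.05 (SE; edgeR adjusted p = 0.487).

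Of 21 genes of the NF-kB pathway, the main activator of chemokine genes in inflammation, 9 were higher and 12 lower, with a median log2 fold change of -0.01. edgeR called 0, with 3 at an unadjusted p below 0.05, against 13.7% of all genes. DESeq2 called 1, against 1.5% of all genes. That gene is Tnfaip3, which encodes the inhibitor A20 and is itself a target of the pathway. It was at 6.31, 7.41 and 7.47 CPM in the WT and 5.27, 4.77 and 4.46 CPM in the Plxnb1-/- cultures, which do not overlap. Its log2 fold change was -0.55 ± 0.10 (SE; edgeR adjusted p = 0.228, DESeq2 adjusted p = 0.0021), and -0.49 without Plxnb1-/- replicate 3. The subunits Rela and Nfkb1 were at 109 ± 4 and 99.3 ± 1.3 CPM in the WT and 114 ± 2 and 97.5 ± 2.2 CPM in the Plxnb1-/- cultures (SD, n = 3 each), and Ikbkg, the regulatory subunit of the kinase, at 76.3 ± 5.1 and 85.9 ± 1.6 CPM. Traf1 had the highest log2 fold change among genes with a mean of at least 1 CPM, 0.28 ± 0.20 (SE; edgeR adjusted p = 0.562).

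The RefSeq promoters of GRCm38.p6 held 5 of the 10 members, Csf1, Il6, Cxcl1, Cxcl12 and Cx3cl1, and were searched over the 250 bases before the start, on both strands. A core NF-kB motif, GGGA and TTCC with 2 bases of any kind between them, were found in 3 of the 5, against 1.21% of 32851 promoters. Il6 carries GGGATTTTCC from 44 to 35 bases before the start. Cxcl1 carries GGGAATTTCC from 71 to 62 bases before it, with a second match on the other strand that overlaps the first. Csf1 carries GGAAAGTCCC, the motif read on the other strand, from 154 to 145 bases before it. The AP-1 letters TGANTCA were found in 1 of the 5, Il6, against 6.75% of promoters. A match of letters is a description and not a bound site.

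Proteins that release or trim these signals and that shorten the life of their mRNA were listed as well, because Cx3cl1, Cxcl16 and Csf1 exist in membrane-bound and shed forms. Of 12 such genes, 7 were higher and 5 lower, with a median log2 fold change of 0.06. Neither tool called any, with 3 at an unadjusted p below 0.05 in edgeR, against 13.7% of all genes. Adam10, a protease that sheds Cx3cl1 and Cxcl16, was at 594, 467 and 565 CPM in the WT and 638, 615 and 606 CPM in the Plxnb1-/- cultures. Its log2 fold change of 0.19 ± 0.08 (SE; edgeR adjusted p = 0.348) was the highest of the list among genes with a mean of at least 1 CPM, and it was 0.10 without WT replicate 2. Zfp36, whose product tristetraprolin speeds the decay of cytokine mRNA, had the lowest, -0.13 ± 0.06 (SE), at 35.4 ± 2.3 and 32.4 ± 0.8 CPM (SD, n = 3 each; edgeR adjusted p = 0.367). Timp3, an inhibitor of the shedding proteases, was at 792 ± 17 and 812 ± 9 CPM, and Rhbdf1, which helps the protease Adam17 reach the surface, at 311 ± 25 and 351 ± 21 CPM.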

How the data were processed

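Poly(A) RNA of 3 WT and 3 Plxnb1-/- SC cultures was sequenced after TruSeq stranded library preparation. The authors trimmed reads with Trim Galore 0.6.5, aligned them to mm10 with Bowtie2 2.4.1, which does not span introns, removed duplicates with SAMtools 1.10, and deposited exonic counts per gene from featureCounts, without normalization. The strand setting is not given in the sources used here. The authors also deposited FPKM values, whose length equals the gene span within 1% for 99.47 to 99.51% of the genes with at least 100 counts in a library, so these were used only as an alternative. Of 55401 identifiers, 55141 were found in the GRCm38 annotation of GENCODE at hand, which is older than that of the authors.

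Genes reaching 2 counts in 5 or more of the 6 libraries were tested with edgeR 4.0.16 (TMM, quasi-likelihood, a genotype term alone) in R 4.3.3, with Benjamini-Hochberg adjustment over 22318 genes. Called genes have an adjusted p under 0.05 and changed by more than 0.25 on the log2 scale. Standard errors come from the fold change and the F statistic. Alternatives were DESeq2 1.42.0, its size factors in edgeR, other count filters, a replicate term, limma 3.58.1 on log2(FPKM + 0.1), leaving out each library, and a newer quasi-likelihood estimate, the last chosen after seeing the data. Scripts were tested on simulated data. Floors of 3 counts cover counting error only. The genes named in each list are those called by edgeR or DESeq2, the highest and lowest fold changes among genes of at least 1 CPM, and the 3 with the highest mean CPM, apart from withheld items, which are not reported here. The members and all lists were chosen with earlier results of these data known. Replicate numbers 1 to 3 occur in both genotypes, whose cultures come from different mice, and the labels do not say which mice a number stands for.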

Additional observations from a re-analysis of the deposited data

How the results depend on the processing

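None of the 10 genes was called under any of the 13 alternatives, leave-one-out included. This covers 129 values, since Cxcl1 has none under the filter of at least 1 CPM in at least 3 libraries, and the lowest adjusted p was 0.0905 (Ccl2, DESeq2). Cxcl1, at 16 to 56 counts, and Cxcl5, at 54 to 142, had the fewest counts and the widest intervals. With single libraries left out, the log2 fold change lay between -0.30 and -0.21 for Ccl2, -0.51 and -0.19 for Ccl7, 0.29 and 0.57 for Ccl11, -0.52 and 0.44 for Cxcl1, -0.051 and 0.43 for Cxcl5, -0.17 and -0.004 for Cxcl12, 0.091 and 0.25 for Cxcl16, -0.20 and -0.07 for Cx3cl1, -0.13 and 0.015 for Csf1, and -0.17 and 0.18 for Il6. The sign turned for Cxcl1 without WT replicate 1 (-0.07) or Plxnb1-/- replicate 1 (-0.52), for Cxcl5 without WT replicate 1 (-0.051), for Csf1 without WT replicate 2 (0.015), and for Il6 without WT replicate 2 (0.18) or Plxnb1-/- replicate 3 (0.03). The number of the 10 that were higher lay between 2 and 6, and was 2 without WT replicate 1.

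The number of genes called, 8 (1 higher, 7 lower), was 335 with DESeq2 (154 and 181), 296 without a filter (120 and 176), 5 with the filter of at least 1 CPM (4 lower) and 3 with limma on FPKM (0 and 3). With libraries left out it lay between 4 and 25 (0 to 8 higher, 4 to 17 lower). With a replicate block it was 5, with 0 higher, and 1 atypical receptor was higher. Deviations of WT and Plxnb1-/- libraries with the same number correlated at -0.0218, 0.0078 and 0.0653, and those with different numbers at -0.053 to 0.0485. The labels state no pairing, and these correlations cannot show whether cultures with the same number were prepared together. The cause of these differences in counts was not tested.

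DESeq2 called 1 gene each among the other chemokine ligands, the receptors, the atypical receptors, the CSF1 and IL-6 list and the NF-kB list, and edgeR without a filter called 1 each in the same lists except the receptors. The filter of at least 1 CPM left 5 other ligands and 3 receptors higher, because fewer genes were tested. Of the atypical receptors, 1 was higher with limma on FPKM, and 0 to 2 with libraries left out. Per kilobase of the mean coding transcript, the median levels were 44.6 for Cx3cl1, 35.2 for Csf1, 17.4 for Ccl2, 8.41 for Cxcl12, 4.91 for Il6, 1.47 for Cxcl16 and 0.367 CPM for Cxcl1.

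The 5 genes most like Ccl2 and the 5 most like Csf1 were the same 5 and 5 with a prior count of 0.5. On FPKM, 3 of the 10 genes, Ccl2, Ccl11 and Cx3cl1, reached 0.1, the smallest p that an exact permutation test of 3 against 3 can give. The share of all genes that reach it on FPKM was not computed, so this count is a description only.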

Other observations

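The deposited FPKM values rank the 10 genes differently from the exon-based levels, as they divide by the span of the gene with its introns. By median FPKM the order began with Ccl7 (13.8), Ccl11 (8.90), Ccl2 (7.51), Cx3cl1 (5.94) and Csf1 (3.57). Ccl11 spans 5133 bases with 1082 bases of exon, and Ccl7 spans 1814 bases with 801 bases of exon. Csf1 has a span of 19422 bases and 5281 bases of exon. A reader who compares signals by FPKM would thus place Ccl2, with a span of 1883 bases, above Cx3cl1, with 10419, while per kilobase of exon Cx3cl1 (median 15.7 CPM) was above Ccl2 (12.4 CPM).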
